A study of Homo sapiens with 8 samples.

Results

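The genes described here are NFE2L2, which encodes the transcription factor NRF2, its repressor KEAP1, and 7 enzyme genes of antioxidant defence that NRF2 is known to drive: GCLC, GCLM, GSR, NQO1, HMOX1, TXNRD1 and SRXN1. Members were the probe sets whose only gene symbol in the annotation of the U133 Plus 2.0 array was one of these names. That gave 19 probe sets for the 9 genes, out of 54613 probe sets tested and 19775 singly named genes in all. NFE2L2, GCLC, GCLM and NQO1 each had 3 probe sets, GSR and TXNRD1 had 2, and KEAP1, HMOX1 and SRXN1 had 1.

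RNA came from the established human multiple myeloma lines JJN3 and RPMI-8226, with 4 cultures of each line on 1 array apiece. One culture of each line had received lentivirus carrying an shRNA against IRE1, one an shRNA against XBP1 and one a non-targeted (NT) shRNA, and one was uninfected. Infection lasted 16 h with polybrene at 8 µg/mL, and the cells were harvested at 96 h, per the labels. The 2 lines are the replicates of a treatment (n = 2), each line is 1 culture per treatment, and the p-values below measure only the spread between these 8 arrays.

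NRF2 is a basic leucine zipper factor that is held by KEAP1 in a ubiquitin ligase complex with CUL3 and degraded while the cell is unstressed. Oxidants and electrophiles modify cysteines of KEAP1, NRF2 escapes degradation, and with a small MAF protein it binds the antioxidant response element of its target genes. Much of its control is therefore on the protein, which arrays do not measure. Plasma cells and myeloma cells make large amounts of disulfide-bonded immunoglobulin and depend on glutathione and thioredoxin for redox balance. IRE1, encoded by ERN1, is the stress sensor of the endoplasmic reticulum whose RNase activity splices the XBP1 mRNA.

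Promoter windows show where the core of the antioxidant response element, TGACNNNGC on either strand, stands in the genes on which the results turn. The windows are RefSeq sequences of the GRCh38.p14 assembly, written 5′ to 3′ on the gene's strand. Each runs over 300 bases, 250 before and 50 after a start of the gene. Windows were at hand for 7 of the 9 genes, 10 in all because some genes have more than 1 start. NQO1 and NFE2L2 are shown for the largest and the opposed line differences, GCLM and TXNRD1 because their windows hold the motif. Capitals mark a match to the motif.
NQO1: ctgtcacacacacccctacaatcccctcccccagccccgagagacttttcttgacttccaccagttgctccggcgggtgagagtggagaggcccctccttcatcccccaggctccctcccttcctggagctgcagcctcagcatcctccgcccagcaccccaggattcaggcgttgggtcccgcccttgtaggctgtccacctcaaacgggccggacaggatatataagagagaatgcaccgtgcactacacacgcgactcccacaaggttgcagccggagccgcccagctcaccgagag
NFE2L2: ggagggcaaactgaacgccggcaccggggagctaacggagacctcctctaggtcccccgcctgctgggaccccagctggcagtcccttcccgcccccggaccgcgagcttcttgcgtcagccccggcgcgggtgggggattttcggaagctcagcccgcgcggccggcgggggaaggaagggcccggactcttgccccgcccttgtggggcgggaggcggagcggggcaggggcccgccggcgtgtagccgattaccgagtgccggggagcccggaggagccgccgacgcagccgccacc
GCLM: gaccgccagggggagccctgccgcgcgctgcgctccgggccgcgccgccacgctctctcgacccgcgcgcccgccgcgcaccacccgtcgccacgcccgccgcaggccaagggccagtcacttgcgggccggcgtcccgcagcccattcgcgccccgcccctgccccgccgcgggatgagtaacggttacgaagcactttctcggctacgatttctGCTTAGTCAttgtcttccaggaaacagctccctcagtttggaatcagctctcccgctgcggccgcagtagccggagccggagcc
TXNRD1: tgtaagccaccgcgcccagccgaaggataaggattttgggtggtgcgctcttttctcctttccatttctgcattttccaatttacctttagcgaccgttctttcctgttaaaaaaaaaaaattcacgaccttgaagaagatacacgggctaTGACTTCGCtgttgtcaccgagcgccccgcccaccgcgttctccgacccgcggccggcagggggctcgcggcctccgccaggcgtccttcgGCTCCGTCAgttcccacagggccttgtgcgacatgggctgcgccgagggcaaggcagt
The NQO1 window lies at chr16:69726511-69726810 and the NFE2L2 window at chr2:177264678-177264977, both on the minus strand, and neither holds these letters. The GCLM window, at chr1:93909381-93909680 on the minus strand, holds the motif on the opposite strand at -34 to -26 from the start. The TXNRD1 window, at chr12:104215529-104215828 on the plus strand, holds it at -99 to -91 on the gene's strand and at -8 to 1 on the opposite strand. In all, 4 of the 10 windows, from the 3 genes KEAP1, GCLM and TXNRD1, held a match. None of these matches overlapped the AP-1 or CRE motif. The KEAP1 matches lay in a window at a later start, and the window at the gene's first start held none. A further TXNRD1 window, also at a later start, held a match at -102 to -94 on the opposite strand. Of the 35116 promoter windows in the table, 13.3% held a match. A match is a description of letters only, and a window without one says nothing of NRF2 at that gene.

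The deposited values were taken as log2 values and were centred, so that each probe set has a median of 0 over the 8 arrays. They give differences between arrays and no level of any gene. Folds assume base 2. The median of all probe sets lay between -0.06 and -0.04 on the JJN3 arrays and between 0.03 and 0.06 on the RPMI-8226 arrays. XBP1 (200670_at) was at -1.47 and -0.60 on the arrays labelled IRE1 shRNA in JJN3 and RPMI-8226, against -0.024 and -0.58 on those labelled XBP1 shRNA. On the NT shRNA arrays it was at 1.11 and 0.024, and on the uninfected arrays at 1.02 and 0.19. ERN1 (235745_at) was at -1.24 in JJN3 and 2.11 in RPMI-8226 on the arrays labelled IRE1 shRNA, against -0.35 and 1.73 with NT shRNA and -0.29 and 2.75 without infection. The RPMI-8226 array labelled IRE1 shRNA was thus above NT shRNA and below uninfected cells for ERN1, and 227755_at gave the same order (0.87, against 0.64 with NT shRNA and 1.78 without infection). The remaining ERN1 probe set, 207061_at, varied little, with 0.034 there against 0.21 with NT shRNA and 0.026 without infection. The 2 controls therefore give opposite answers on whether ERN1 was lowered on that array, and every direction drawn from it rests on its label. On the arrays labelled XBP1 shRNA, ERN1 235745_at was at -1.57 in JJN3 and 0.29 in RPMI-8226. In each line that was its lowest array, and 227755_at gave the same. XBP1 200670_at was lowest in each line on the array labelled IRE1 shRNA, in RPMI-8226 by only a little. In these probe sets each target was thus lowest under the label of the other. The second XBP1 probe set, 242021_at, did not share this. In RPMI-8226 it was lowest on the array labelled XBP1 shRNA, at 0.13. There it was at 0.33 with IRE1 shRNA, 0.33 with NT shRNA and 0.21 without infection. In JJN3 it varied little, between -0.23 and -0.13, and was lowest with NT shRNA. Directions drawn from any array labelled XBP1 or IRE1 shRNA rest on the labels. The median of 27 spiked poly-A control probe sets was highest on the RPMI-8226 array with XBP1 shRNA (0.41), and that of 18 hybridisation control probe sets on the JJN3 array labelled IRE1 shRNA (0.42). The difference between the 3′ and 5′ probe sets of actin lay between 0.13 and 0.42 in JJN3 and between -0.61 and -0.43 in RPMI-8226. That of GAPDH lay between 0.0037 and 0.0459 in JJN3 and between -0.0834 and 0.0618 in RPMI-8226, so there the lines overlapped. Marker lists of T and NK cells, myeloid cells, and stromal or epithelial cells (26 probe sets) had medians between -0.30 and 0.25 on every array. Whether these markers, or those of plasma cells, are present or absent cannot be read from centred values.

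NQO1 separated the lines by far the most among the 9 genes, being 10.7 to 12.5 times higher in JJN3 than in RPMI-8226 in its 3 probe sets. NFE2L2 201146_at, 2 of 3 GCLM probe sets, HMOX1 and 1 of 2 TXNRD1 probe sets were also higher in JJN3, by 1.63 to 2.39 times. Of the other NFE2L2 probe sets, 1567013_at was called higher by less, and 1567015_at was called lower (-0.33). GSR was lower in JJN3, and KEAP1 and SRXN1 did not pass the test. Of the 19 probe sets, 13 passed at an adjusted p of 0.05 (limma, treatment as a block, Benjamini-Hochberg over all 54613 probe sets), 10 higher and 3 lower in JJN3. That is a share of 68.4%, against 56% of all probe sets, 22.8% of them higher and 33.3% lower in JJN3. The share called is thus not far above the background, while the balance of higher to lower runs the other way from that of all probe sets. The median difference over the 19 probe sets was 0.41, against -0.14 over all probe sets. The values of the 2 lines did not overlap for 11 of the 19 probe sets, 8 with JJN3 higher (18.9% of all probe sets) and 3 with JJN3 lower (29.8% of all). The 3′ minus 5′ actin difference separated the lines in the same arrays, while that of GAPDH did not. The part of either in these differences was not tested. In RNA from whole cultures, fewer cells of a kind and less RNA per cell cannot be told apart.

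**Figure D1:**
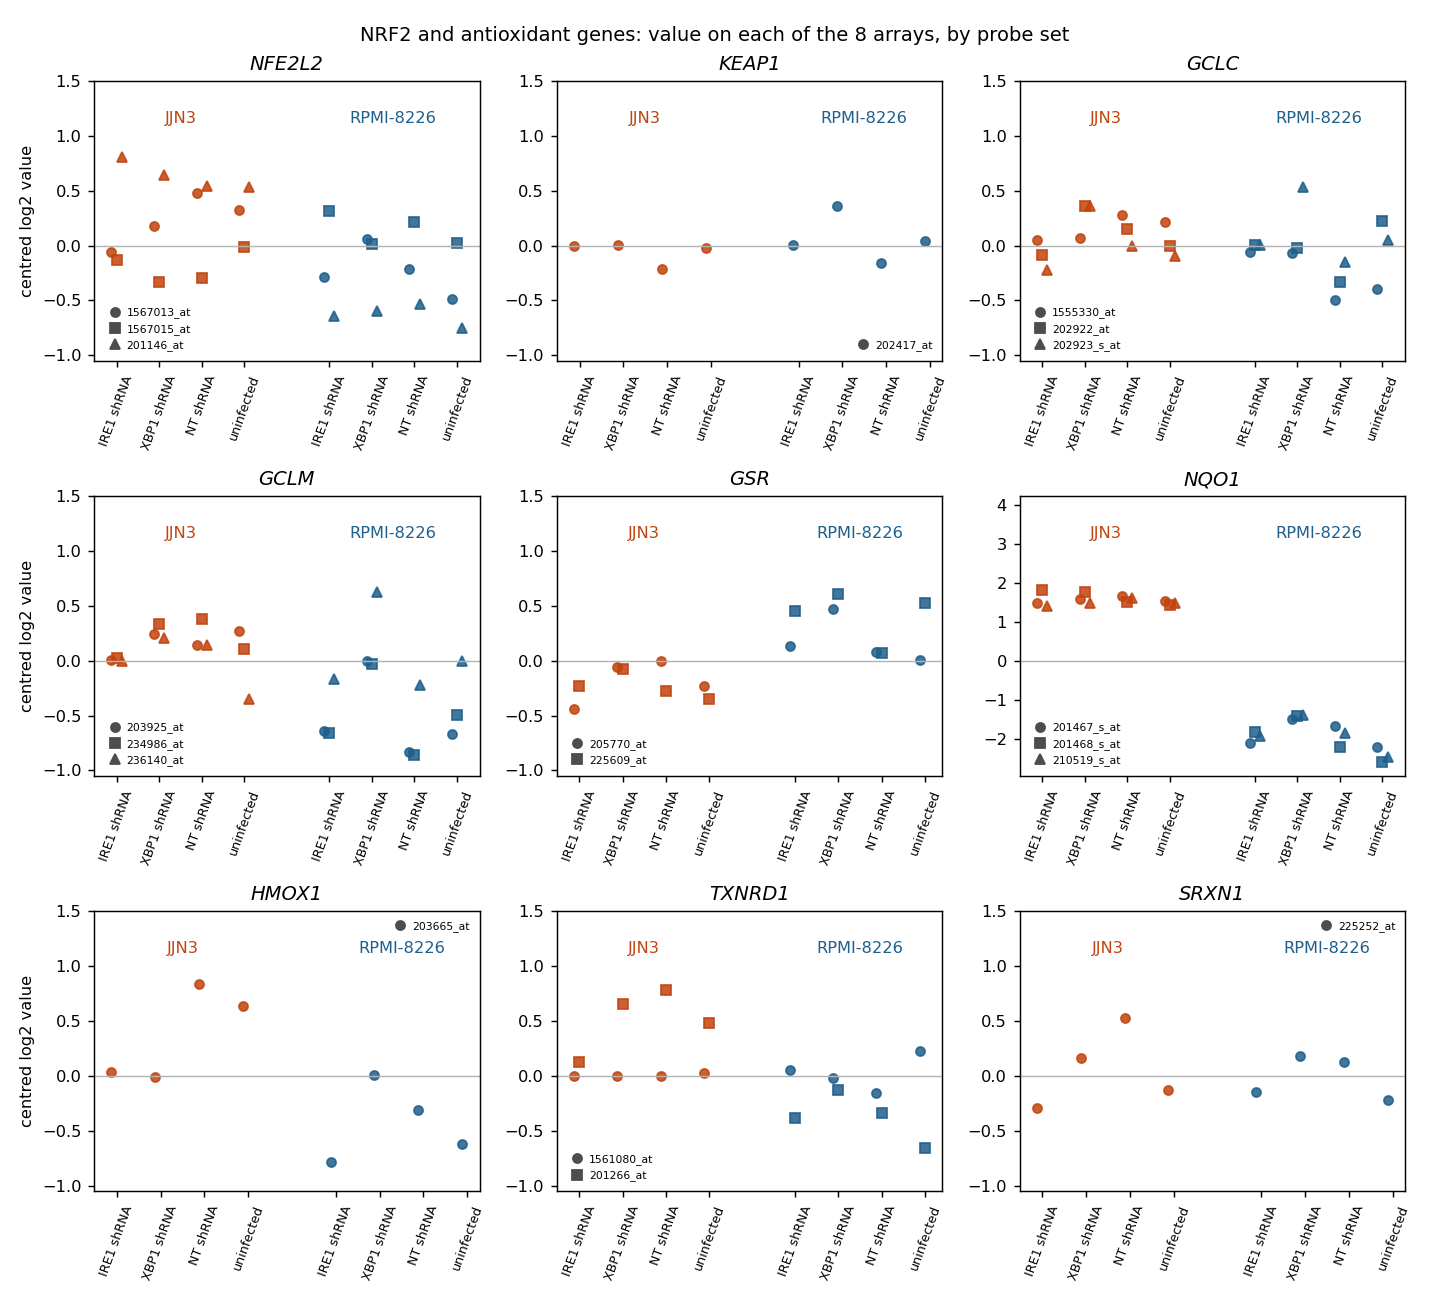
Centred log2 value of each probe set on each of the 8 arrays, 1 panel per gene, with JJN3 (orange) left of RPMI-8226 (blue) and marker shapes for the probe sets of a gene. NQO1, which has a wider axis than the other panels, lies between 1.40 and 1.82 on the JJN3 arrays and between -2.59 and -1.40 on the RPMI-8226 arrays, and the 2 controls of JJN3 stand above its silenced arrays for HMOX1.

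For NFE2L2, probe set 201146_at was at 0.81, 0.64, 0.54 and 0.53 in JJN3 with IRE1 shRNA, XBP1 shRNA, NT shRNA and no infection. In RPMI-8226 it was at -0.64, -0.60, -0.53 and -0.75 in the same order of treatments. The lines did not overlap, and the difference was 1.26 ± 0.10 (SE, 2.39 times, adjusted p = 1.06e-05). The other NFE2L2 probe sets differed less and went opposite ways. Probe set 1567013_at was higher in JJN3 by 0.47 ± 0.14 (adjusted p = 0.0168), with JJN3 values between -0.058 and 0.48 and RPMI-8226 values between -0.48 and 0.058. Probe set 1567015_at was lower in JJN3 (-0.33 ± 0.11, adjusted p = 0.0312), with values between -0.33 and -0.0098 in JJN3 and between 0.0098 and 0.31 in RPMI-8226. Both of these calls are fragile. Without the uninfected pair of arrays 1567013_at had an adjusted p of 0.0817, and with each array shifted to a median of 0 the difference of 1567015_at was -0.25 with an adjusted p of 0.0940. Another probe set is annotated to both NFE2L2 and CSNK2A1 and was left out by the rule.

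KEAP1, the cysteine-rich sensor that presents NRF2 to the ligase, was measured by 202417_at. Its values were -0.0055, 0.0096, -0.21 and -0.021 in JJN3 and 0.0055, 0.36, -0.16 and 0.042 in RPMI-8226, for IRE1 shRNA, XBP1 shRNA, NT shRNA and uninfected. The lines overlapped, and the difference of -0.12 ± 0.11 did not pass (adjusted p = 0.351, 95% interval -0.36 to 0.12). The interval excludes a line difference of the size seen for NFE2L2 201146_at but not one between -0.36 and 0.12.

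GCLC and GCLM are the catalytic and the modifier subunit of glutamate-cysteine ligase, which makes the first and rate-limiting step of glutathione synthesis. GCLM 203925_at was at 0.0066, 0.24, 0.15 and 0.27 in JJN3 with IRE1 shRNA, XBP1 shRNA, NT shRNA and no infection. In RPMI-8226 it was at -0.65, -0.0066, -0.83 and -0.67. All JJN3 values stood above all RPMI-8226 values, although the RPMI-8226 array with XBP1 shRNA came close to them. The difference was 0.70 ± 0.14 (1.63 times, adjusted p = 0.00207), and the second GCLM probe set, 234986_at, gave 0.72 ± 0.14 (1.65 times, adjusted p = 0.00239). The third, 236140_at, did not differ beyond its error (-0.06 ± 0.15, adjusted p = 0.744). For GCLC only 1555330_at passed, at 0.41 ± 0.14 (adjusted p = 0.0299), with 0.054 to 0.28 in JJN3 and -0.49 to -0.054 in RPMI-8226. That call was lost without the NT shRNA pair of arrays (0.28, adjusted p = 0.132), and GCLC 202922_at (0.14, adjusted p = 0.415) and 202923_s_at (-0.10, adjusted p = 0.449) did not pass.

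GSR, glutathione reductase, returns oxidised glutathione to its reduced form. GSR 225609_at was at -0.23, -0.07, -0.28 and -0.35 in JJN3 and at 0.45, 0.61, 0.07 and 0.52 in RPMI-8226, in the order IRE1 shRNA, XBP1 shRNA, NT shRNA and uninfected. The lines did not overlap, and the value was lower in JJN3 (-0.65 ± 0.11, 0.638 times, adjusted p = 0.00124). GSR 205770_at was lower in JJN3 as well (-0.35 ± 0.12, adjusted p = 0.0275), and its adjusted p was 0.0777 with each array shifted to a median of 0 (-0.27). GSR was thus the 1 gene of the 9 that was called only lower in JJN3.

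NQO1, a flavoenzyme that reduces quinones to hydroquinones, gave the clearest separation. NQO1 201468_s_at was at 1.82, 1.76, 1.50 and 1.43 in JJN3 and at -1.84, -1.43, -2.22 and -2.59 in RPMI-8226, for IRE1 shRNA, XBP1 shRNA, NT shRNA and uninfected. Its difference was 3.64 ± 0.14 (12.5 times, adjusted p = 7.66e-08). Probe sets 201467_s_at and 210519_s_at gave 3.44 ± 0.13 (10.8 times, adjusted p = 6.67e-08) and 3.41 ± 0.16 (10.7 times, adjusted p = 2.94e-07). Over the 4 treatments taken one at a time, the NQO1 differences between the lines ran between 2.87 and 4.02. Each of the 3 probe sets was highest, among the 4 RPMI-8226 arrays, on the array with XBP1 shRNA and lowest on the uninfected array.

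HMOX1, heme oxygenase 1, opens the heme ring and yields biliverdin, iron and carbon monoxide. HMOX1 203665_at was at 0.035, -0.011, 0.83 and 0.64 in JJN3 and at -0.79, 0.011, -0.31 and -0.62 in RPMI-8226, for IRE1 shRNA, XBP1 shRNA, NT shRNA and uninfected. The fitted difference was 0.80 ± 0.19 (1.74 times, adjusted p = 0.00658). It was not even over the treatments: the line difference was 1.14 with NT shRNA and 1.26 without infection, 0.82 with IRE1 shRNA and -0.021 with XBP1 shRNA, where the lines had almost the same value.

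TXNRD1, thioredoxin reductase 1, is the NADPH-dependent enzyme that keeps thioredoxin reduced. TXNRD1 201266_at was at 0.13, 0.66, 0.78 and 0.48 in JJN3 and at -0.39, -0.13, -0.34 and -0.66 in RPMI-8226, for IRE1 shRNA, XBP1 shRNA, NT shRNA and uninfected. JJN3 was higher on every array, by 0.89 ± 0.13 (1.85 times, adjusted p = 0.000378). The second TXNRD1 probe set, 1561080_at, had 0 on 3 of the JJN3 arrays and did not differ (-0.019 ± 0.10, adjusted p = 0.888). SRXN1, sulfiredoxin, repairs overoxidised peroxiredoxins. SRXN1 225252_at was at -0.30, 0.17, 0.53 and -0.13 in JJN3 and at -0.15, 0.18, 0.13 and -0.22 in RPMI-8226, and did not pass (0.08 ± 0.12, adjusted p = 0.570, 95% interval -0.18 to 0.34).

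**Figure D2:**
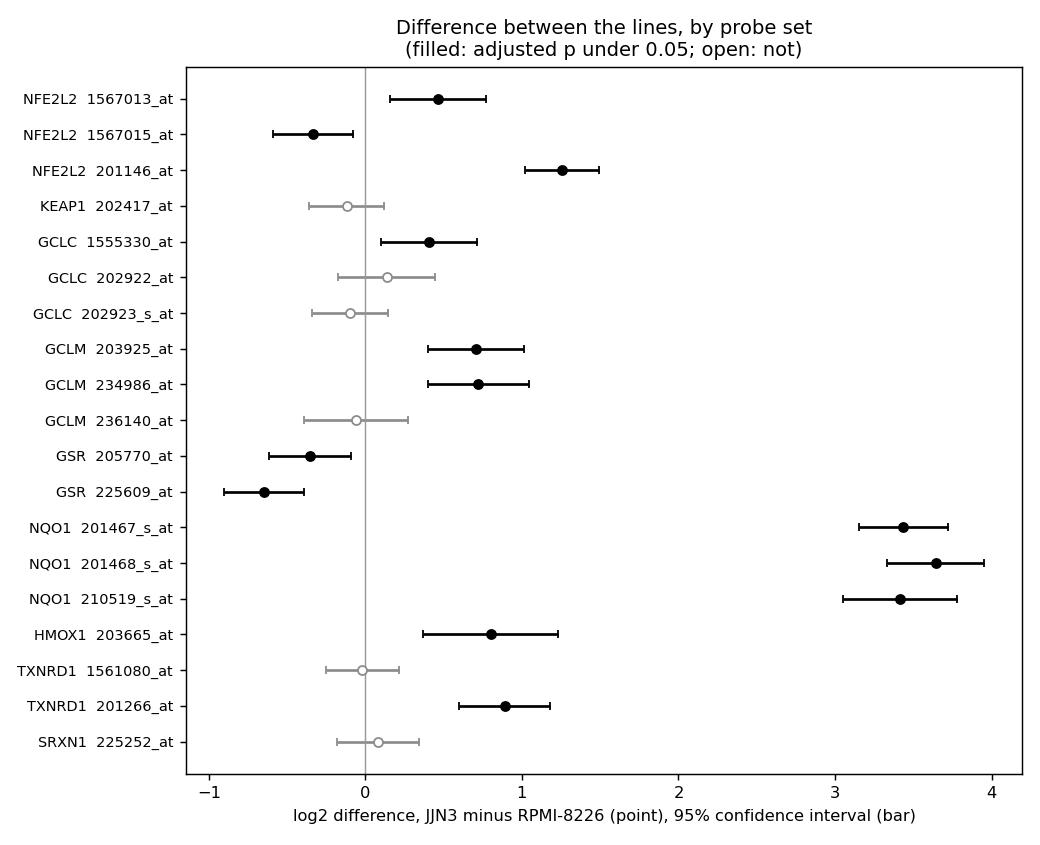
Log2 difference between JJN3 and RPMI-8226 for each of the 19 probe sets, from the limma fit with treatment as a block; the points are fitted differences and the bars their 95% intervals. The NQO1 probe sets lie between 3.41 and 3.64, apart from the rest, and both GSR probe sets lie below 0.

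Probe sets of 1 gene did not always move together across treatments. After each line's mean was taken away, the NQO1 probe sets correlated over the 8 arrays at 0.57 to 0.89 (Pearson's r) and those of GCLM at 0.74 to 0.90. Those of NFE2L2 gave -0.27 to 0.15, so the 3 NFE2L2 probe sets did not vary together across the treatments. The GCLC probe sets gave 0.17 to 0.59, the 2 of GSR 0.39 and the 2 of TXNRD1 -0.43, the lowest of these pairs. These correlations describe 8 arrays that share 2 lines.

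XBP1 shRNA against NT shRNA compares the arrays so labelled, with infection held the same. ERN1 was below NT shRNA on the arrays labelled XBP1 shRNA in both lines, so the comparison cannot separate XBP1 from IRE1. None of the 19 probe sets passed (0 of 19, limma with the cell line as a block), against 1.21% of all probe sets; at an unadjusted p under 0.05 there were 5 of 19, against 13.7% of all. The 5 were probe sets of KEAP1, GCLC, GCLM, GSR and NQO1, each with a positive difference. The lowest p belonged to GCLC 202923_s_at, at 0.52 ± 0.15 (95% interval 0.18 to 0.86, adjusted p = 0.150), which was positive in both lines with 0.36 in JJN3 and 0.69 in RPMI-8226. KEAP1 202417_at was at 0.37 ± 0.15 (0.22 in JJN3 and 0.52 in RPMI-8226, adjusted p = 0.308). NFE2L2 201146_at was at 0.014 ± 0.15, with an interval of -0.32 to 0.35 that leaves out a change as large as its line difference.

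Within each line 1 array stands against 1 array. In RPMI-8226, 17 of the 19 probe sets were higher with XBP1 shRNA than with NT shRNA (51% of all probe sets), and the exceptions were NFE2L2 1567015_at and 201146_at. In JJN3 it was 8 of 19 (49% of all). The array with XBP1 shRNA was the highest of the 4 RPMI-8226 arrays for 14 of the 19 probe sets (30.5% of all), and of the 4 JJN3 arrays for 5 (27.2% of all). The 3 GCLM probe sets were higher by 0.83, 0.83 and 0.85 in RPMI-8226, where the NT shRNA array was also the lowest of the 4. In JJN3 the same differences were 0.10, -0.05 and 0.07. HMOX1 went opposite ways, at -0.84 in JJN3 and 0.32 in RPMI-8226, which gave -0.26 ± 0.27 over both (adjusted p = 0.770). These within-line values have no replicate check. The RPMI-8226 array with XBP1 shRNA also had the highest poly-A control median, at 0.41 against 0.24 with NT shRNA, and its part in these differences was not tested.

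IRE1 shRNA against NT shRNA compares the arrays labelled IRE1 shRNA in the same way, and shares its NT shRNA arrays with the comparison before. XBP1 200670_at was below NT shRNA on the arrays labelled IRE1 shRNA in both lines, and ERN1 235745_at only in JJN3. Again 0 of 19 probe sets passed in limma, against 0.0183% of all probe sets (10 probe sets), and 2 of 19 had an unadjusted p under 0.05, against 9.47% of all. These were HMOX1 and SRXN1, and both were lower with IRE1 shRNA in both lines. HMOX1 203665_at was at -0.64 ± 0.27 (95% interval -1.25 to -0.025, adjusted p = 0.502), with -0.80 in JJN3 and -0.48 in RPMI-8226. SRXN1 225252_at was at -0.55 ± 0.16 (interval -0.92 to -0.18, adjusted p = 0.306), with -0.82 in JJN3 and -0.28 in RPMI-8226. TXNRD1 201266_at was at -0.35 ± 0.18 (adjusted p = 0.618), nearly all of it in JJN3 (-0.66, against -0.044 in RPMI-8226).

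The JJN3 array labelled IRE1 shRNA had the lowest value of the 4 JJN3 arrays for 11 of the 19 probe sets (25.4% of all), from NFE2L2, GCLC, GCLM, GSR, NQO1, TXNRD1 and SRXN1. For GCLC this held in all 3 probe sets, while for NFE2L2 201146_at and NQO1 201468_s_at the same array was the highest of the 4. In RPMI-8226 the array so labelled was the lowest for 1 of the 19 (20.3% of all). Against NT shRNA, 5 of 19 probe sets were higher in JJN3 (50.8% of all) and 12 of 19 in RPMI-8226 (49.7% of all). The hybridisation control median was highest on that JJN3 array, at 0.42 against 0.048 with NT shRNA, and its part was not tested. ERN1 235745_at was below both controls on the JJN3 array, and on the RPMI-8226 array below uninfected cells but above NT shRNA, as given above.

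**Figure D3:**
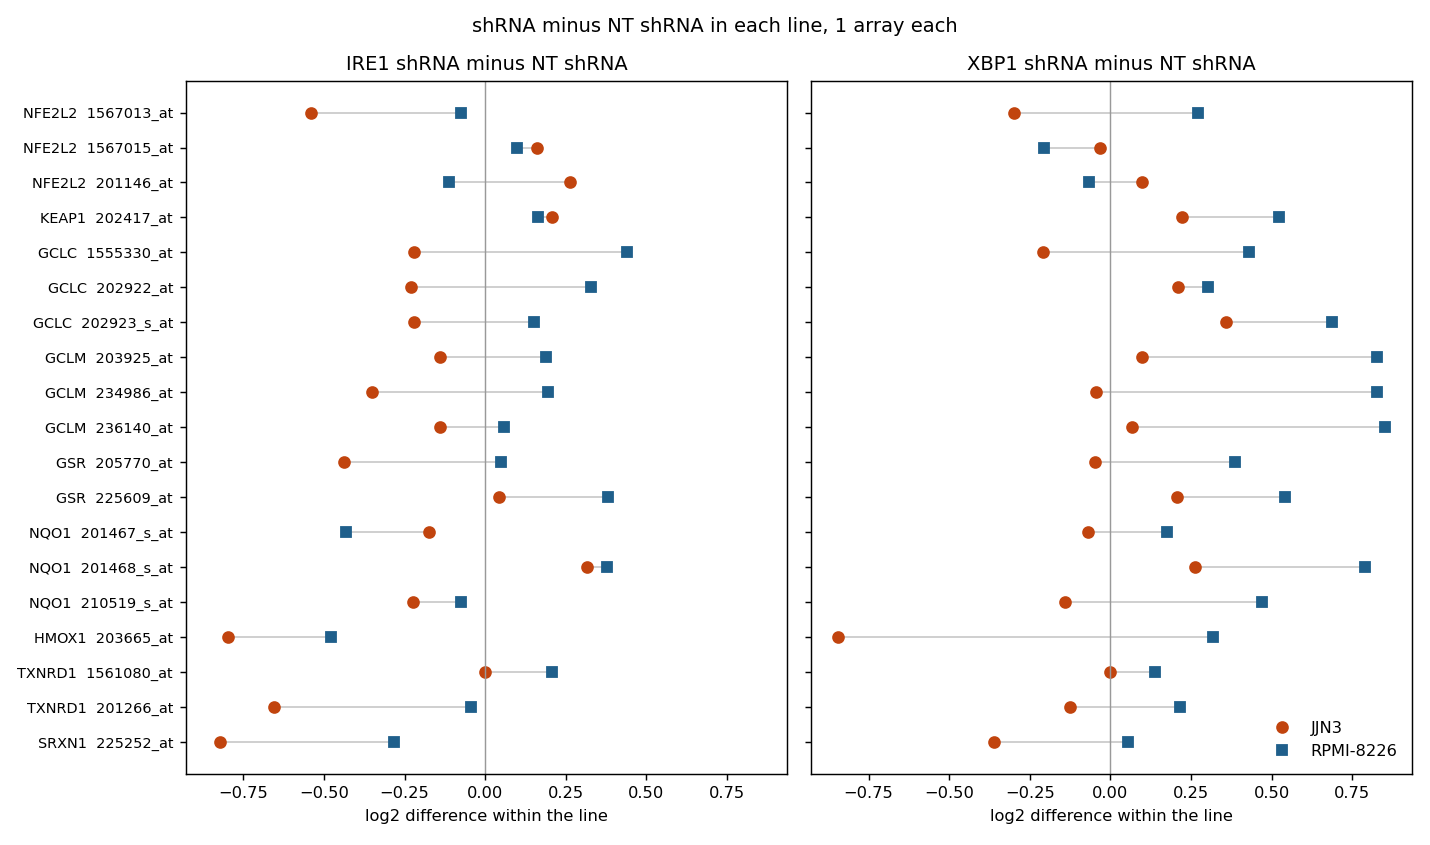
Log2 difference of each probe set between the shRNA array and the NT shRNA array of the same line, 1 array each, for IRE1 shRNA (left) and XBP1 shRNA (right), with JJN3 as circles and RPMI-8226 as squares; both panels share the NT shRNA arrays. In the XBP1 shRNA panel the RPMI-8226 squares lie right of 0 for 17 of 19 probe sets, while HMOX1 in JJN3 lies at -0.84.

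IRE1 shRNA against XBP1 shRNA is a difference that holds no NT shRNA array, although all 8 arrays set the spread in its test. It gave 0 calls of 19 (limma), against 1.9% of all probe sets, and 5 of 19 at an unadjusted p under 0.05, against 13.7% of all. All 5 were lower with IRE1 shRNA: GCLC 202923_s_at at -0.56 ± 0.15 (adjusted p = 0.114), the 3 GCLM probe sets at -0.44, -0.47 and -0.50 (adjusted p between 0.320 and 0.359) and SRXN1 at -0.40 ± 0.16 (adjusted p = 0.318). Of these 5, 3 are repeat readings of GCLM. GCLC is there with 202923_s_at alone, while its 3 probe sets spanned -0.56 to -0.0013. Both lines had a lower value with IRE1 shRNA for 12 of the 19 probe sets, against 28.3% of all probe sets, and the median over the 19 was -0.32. The comparison does not say which of the 2 silenced groups moved.

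NT shRNA against uninfected measures what lentivirus with a control shRNA does. Limma called 0 of 19 members and 0 of all probe sets (0%), and 1 of 19 had an unadjusted p under 0.05, against 5.57% of all. That was SRXN1, at 0.50 ± 0.16 (adjusted p = 0.873), higher with NT shRNA by 0.66 in JJN3 and 0.35 in RPMI-8226. The 3 NQO1 probe sets were at 0.33, 0.22 and 0.38, TXNRD1 201266_at at 0.31 and HMOX1 at 0.26, none past the test (adjusted p between 0.882 and 0.945). In JJN3 the values with IRE1 shRNA were below uninfected cells as well as below NT shRNA, for SRXN1 (-0.30, against -0.13 uninfected) and for TXNRD1 201266_at (0.13, against 0.48 uninfected). In RPMI-8226 they were above uninfected cells, for SRXN1 (-0.15, against -0.22) and for TXNRD1 201266_at (-0.39, against -0.66).

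Silenced (IRE1 or XBP1 shRNA) against control (NT shRNA or uninfected) is the comparison named by the series. It gave 0 calls among the 19 and among all probe sets (0%, limma with the line as a block), and 1 of 19 at an unadjusted p under 0.05, against 9.3% of all. That probe set was NQO1 201468_s_at, at 0.55 ± 0.14 (adjusted p = 0.264), with no overlap of silenced and control arrays in either line. The other NQO1 probe sets were at 0.042 and 0.20, so the gene's 3 probe sets do not share a value. Within JJN3 the silenced and control arrays did not overlap for 8 probe sets, 4 higher (19.6% of all) and 4 lower (20.3% of all), and HMOX1 was among the lower ones. Within RPMI-8226 they did not overlap for 4, all higher (18.7% of all), and for 0 lower (14.5% of all). The 4 in RPMI-8226 were GCLC 1555330_at, GCLM 203925_at, GSR 205770_at and NQO1 201468_s_at.

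The test of whether silencing acted differently in the lines called 0 of 19 and 0 of all probe sets (0%, limma interaction), with 2 of 19 at an unadjusted p under 0.05, against 5.23% of all. GCLC 1555330_at had a difference of -0.57 ± 0.18 between JJN3 and RPMI-8226 (adjusted p = 0.899), and NFE2L2 1567013_at also had -0.57 (adjusted p = 0.950). HMOX1 was at -0.80 ± 0.35 (unadjusted p = 0.0511, adjusted p = 0.950): silenced minus control was -0.72 in JJN3 and 0.077 in RPMI-8226. The opposite signs of HMOX1 in the 2 lines are therefore not shown to differ.

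Further genes were read from 4 lists: NRF2 partners and regulators, further NRF2 targets, glutathione use, and thioredoxin, peroxiredoxin, dismutase and catalase. The last 2 lists were drawn by function and not as NRF2 targets. In JJN3 against RPMI-8226 the NRF2 partners and regulators (14 of 16 genes measured) were called only higher for 8 genes, only lower for 2, in both directions by different probe sets for 2 and not at all for 2. The share of probe sets called was 51.2%, below the 56% of all. BACH2, a repressor that competes for the same DNA element, was higher in JJN3 by 1.98 (adjusted p = 3.75e-06) and 1.16. NFE2L3, a relative of NRF2, was higher by 1.71 (adjusted p = 1.98e-05) and 1.57, and CUL3, the scaffold of the KEAP1 ligase, by 0.97 (adjusted p = 4.12e-05) and 0.89. CAND1, the exchange factor of cullin ligases, was higher by 1.95 in 1 probe set, while its 7 probe sets spanned -0.12 to 1.95. MAFK and SYVN1 were not measured by a singly named probe set here.

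Of the 28 further NRF2 targets measured, 7 were called only higher and 15 only lower in JJN3. Of their probe sets 62.1% were called and the median was -0.27, near the 56% and -0.14 of all probe sets, where lower calls (33.3%) also outnumber higher ones (22.8%). TRIM16, a tripartite motif protein, was higher by 2.89 ± 0.21 (7.40 times, adjusted p = 4.61e-06), and the glutathione conjugate exporter ABCC1 by 1.45 (adjusted p = 2.50e-06). PGD, the phosphogluconate dehydrogenase that makes NADPH, was lower in 1 of its 3 probe sets (-2.02, adjusted p = 1.94e-06), which spanned -2.02 to -0.0067. The ferritin light chain FTL was lower in both of its probe sets (-1.77 and -1.36, adjusted p = 6.91e-07 for the first). Of the 29 glutathione-using genes measured, 4 were called only higher, 16 only lower and 2 both ways; 60.4% of their probe sets were called, again near the 56% of all. GSTM3, a glutathione S-transferase, was higher by 4.09 ± 0.16 in 1 probe set (17.0 times) and lower by a small amount in the other (-0.27). GPX7, a peroxidase of the endoplasmic reticulum, was lower (-5.46 ± 0.40, adjusted p = 5.00e-06), and GSTA4 was higher by 2.16 and MGST3 by 1.94. MGST3 also had a probe set called lower (-0.35). Of 24 thioredoxin, peroxiredoxin, dismutase and catalase genes, 11 were called only higher and 9 only lower (67.3% of probe sets, against 56% of all). SESN3, a sestrin, was higher by up to 5.10 ± 0.15 (34.2 times, adjusted p = 1.86e-08), with its 7 probe sets spread between -0.21 and 5.10, and TXNL1 was higher by 2.09 and 0.42 in 2 of 3 probe sets. The methionine sulfoxide reductase MSRB3 was lower (-3.45 ± 0.14, adjusted p = 1.36e-07), and so was ERO1B, an oxidase of the endoplasmic reticulum (-2.47 ± 0.18, adjusted p = 5.24e-06).

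**Figure D4:**
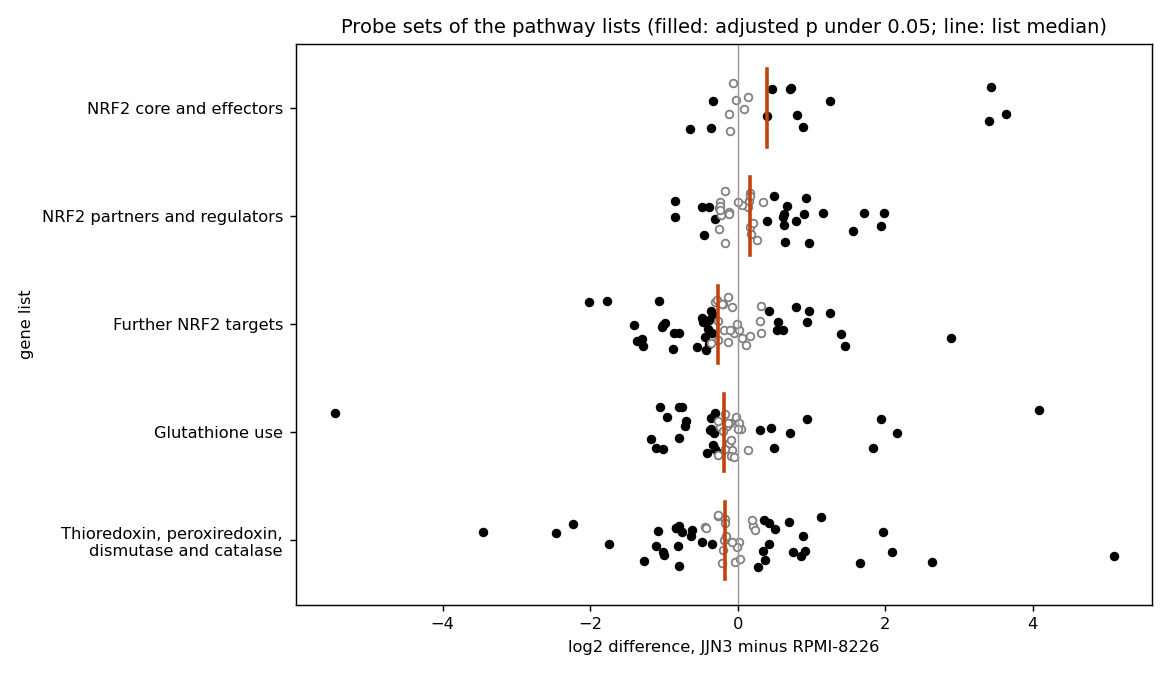
Log2 difference between JJN3 and RPMI-8226 for each probe set of the NRF2 members and of the 4 further lists, from the same fit. The members centre at 0.41 and the further NRF2 targets at -0.27, with SESN3 at 5.10 and GPX7 at -5.46 as the extremes.

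With XBP1 shRNA against NT shRNA, IDH1 was the 1 gene of the 4 lists past the test, against 1.21% of all probe sets. In the order of the lists above, 13 of 43, 10 of 58, 13 of 48 and 10 of 55 probe sets had an unadjusted p under 0.05, against 13.7% of all. IDH1, the cytosolic isocitrate dehydrogenase that supplies NADPH, fell in 2 of its 3 probe sets, by 1.07 ± 0.14 (adjusted p = 0.0155, -1.09 in JJN3 and -1.05 in RPMI-8226) and by 1.02 ± 0.15 (adjusted p = 0.0240). Both calls were lost without either NT shRNA array (-1.06 and -1.01 without that of RPMI-8226, adjusted p = 0.149 and 0.186; -1.08 and -1.03 without that of JJN3, adjusted p = 0.108 and 0.141) or without the JJN3 array with XBP1 shRNA (-1.04 and -0.88, adjusted p = 0.0521 and 0.0814), while the differences kept their sign. The glycogen synthase kinase GSK3B, which marks NRF2 for a KEAP1-independent ligase, was at 0.89 ± 0.18 in its largest probe set (adjusted p = 0.0589). NFE2L1 had -0.77, -0.71 and -0.64 in its 3 probe sets, SESN2 had -1.39 and -1.24, and CHAC1, which cleaves glutathione, had -1.23, none past the test (adjusted p between 0.162 and 0.312). GPX7 had -1.53 ± 0.57 (adjusted p = 0.269), made of 0.0010 in JJN3 and -3.06 in RPMI-8226. The largest SESN3 value was 0.71 (adjusted p = 0.161).

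With IRE1 shRNA against NT shRNA no gene of these lists passed (0 of 14, 28, 29 and 24 genes in limma, with 8 of 43, 10 of 58, 7 of 48 and 8 of 55 probe sets at an unadjusted p under 0.05, against 9.47% of all). Values are of the probe set with the largest difference. The largest values were mostly negative and larger in JJN3. SLC7A11, the cystine transporter that feeds glutathione synthesis, was at -1.60 ± 0.50 (adjusted p = 0.323), with -2.82 in JJN3 and -0.38 in RPMI-8226. SESN2 was at -1.70 (adjusted p = 0.239) and CHAC1 at -1.17 (adjusted p = 0.499), both larger in JJN3. SQSTM1, the autophagy receptor p62 that sequesters KEAP1, was at -1.13 ± 0.34 (adjusted p = 0.312; -1.83 in JJN3 and -0.42 in RPMI-8226). SLC48A1, a heme transporter, was at -1.06 ± 0.17 (adjusted p = 0.135; its 3 probe sets spanned -1.06 to 0.12) and the glutaredoxin GLRX at -0.87 ± 0.17 (adjusted p = 0.172), and those probe sets had negative values in each line. CAND1 had 1.01 and TXNL1 1.11 in their highest probe sets (adjusted p = 0.240 and 0.380).

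IRE1 shRNA against XBP1 shRNA called 3 genes of the lists. The share of probe sets called was 6.98% of the partners and regulators, 1.72% of the further targets and 0% of each other list, against 1.9% of all. GSK3B was lower with IRE1 shRNA in 1 of its 5 probe sets (-1.10 ± 0.18, adjusted p = 0.0252), while another was at 0.83 (adjusted p = 0.209). DPP3, a peptidase that binds KEAP1, was lower in both of the 2 named here (-0.89 and -0.87, adjusted p = 0.0247 and 0.0233). The malic enzyme ME1, another source of NADPH, was higher in 1 of 3 probe sets (0.69 ± 0.14, adjusted p = 0.0496). Each of these calls was lost when any 1 of the 4 arrays compared was left out (adjusted p between 0.0532 and 0.383), with the sign kept; ME1 was also lost without any other array (adjusted p of 0.0765 or 0.0809). MGST1 was at 0.78 (adjusted p = 0.0977), ERO1B at -1.06 in 1 probe set and 0.24 in the other (adjusted p = 0.0833 and 0.833), TXNL1 at 1.22 (adjusted p = 0.169) and GPX7 at 1.40 (adjusted p = 0.313).

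NT shRNA against uninfected, silenced against control and the interaction each called 0 of the listed genes (limma, 0% of all probe sets called). Values are of the probe set with the largest difference, for the 2 genes of each list with the largest values. With NT shRNA, 3 of 43, 6 of 58, 2 of 48 and 4 of 55 probe sets of the 4 lists had an unadjusted p under 0.05, against 5.57% of all. NFE2L1 was at -0.72, the small MAF protein MAFF at 0.67, the biliverdin reductase BLVRA at 0.57, PIR at 0.42 and GSTA4 at 0.57, with every probe set of each gene on the same side of 0. The probe sets of ERO1B (-0.41 and 0.67), GSTM3 (-0.074 and 0.40) and TXNL1 (-0.45 to 0.11) lay on both sides. Under silencing the counts were 11, 7, 6 and 10 of the same probe sets, against 9.3% of all, and the largest values were mostly negative. SESN2 was at -1.49 (adjusted p = 0.186), CHAC1 at -1.19, SLC7A11 at -1.11 and NFE2L1 at -0.81 (adjusted p = 0.353). SQSTM1 was at -0.72, SLC48A1 at -0.73 (its probe sets spanned -0.73 to 0.11), GPX7 at -0.65 and ERO1A at 0.51. In the interaction the counts were 2, 3, 1 and 4, against 5.23% of all. CHAC1 was at -1.72, SESN2 at -1.46, SLC7A11 at -1.29, GPX7 at 1.27, NXN at -0.86, CUL3 at 0.79 and TKT at -0.65. GSK3B was at 0.97, with probe sets between -0.14 and 0.97.

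The genes whose pattern across treatments was most like the mean of the NFE2L2 probe sets, by Pearson's r over the 8 arrays after each line's mean was taken away, were SENCR (0.97), RUSC2 (0.97), PPFIA2 (0.96), MIA (0.96) and LMOD1 (0.96). They were the highest of 19774 genes, and how high r runs by chance among so many genes was not tested. Against the single NFE2L2 probe sets the same 5 genes gave 0.14 to 0.78, so the likeness belongs to the mean. Each gene was ranked by 1 probe set, that of its highest r, so genes with more probe sets had more chances of a high rank. Of the other members NQO1 came highest with 210519_s_at, at rank 527 (0.80). HMOX1 was at rank 3821, TXNRD1 at rank 4437 and KEAP1 at rank 14116 (0.0054).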

How the data were processed

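RNA from 8 cultures was hybridised to Affymetrix arrays. The authors processed the signals with RMA, per the submitters' processing notes. The deposited values were taken here as log2, the scale that RMA returns; the log base, the software version and the centring are not given in the sources used here. Every probe set, 54675 in all, is centred to a median of 0 (tolerance 1e-05), so no dim probe could be filtered and no level is given. The number of arrays limits the precision. None of the 28 array pairs was identical (0 pairs).

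After 62 control probe sets were left out, 54613 were tested with limma 3.58.1 in R 4.3.3 (lmFit, eBayes, two-sided, Benjamini-Hochberg over all, threshold 0.05). Treatments were compared over all 8 arrays with the cell line as a block, silenced against control as 4 arrays against 4 with the same block, and the lines with treatment as a block. In the interaction a line's 2 shRNAs and 2 controls stood as its replicates. The pairing comes from the cell line. The deviations of a line's arrays from the treatment means correlated at 0.90 to 0.93. With 1 array per line in each treatment, such a deviation holds only the line difference, so this is no check of the pairing. The fit was tested on simulated data. A single symbol was listed for 41091 probe sets, several for 1801 and none for 11721; 41043 matched the gene table by Entrez identifier and 0 symbols were updated.

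Members and lists were chosen with earlier results of these data known. All members are named; of the other lists, the genes past the threshold are named (at most 4 per list, largest difference first) or else the 2 with the largest difference, and the 5 genes most like NFE2L2. Alternatives left out each array, rescaled the arrays, changed the handling of probe sets, the block, the control or the samples fitted, or used robust eBayes.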

Additional observations from a re-analysis of the deposited data

Results flagged for a closer look

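Within the 4 arrays of a line, 2 of 38 sets of values had 1 array far from the other 3 (Dixon's test), about the 1 in 20 that chance gives. KEAP1 202417_at was at -0.21 on the JJN3 array with NT shRNA, below the other JJN3 arrays. TXNRD1 1561080_at was at 0.023 on the uninfected JJN3 array while the other 3 JJN3 arrays were at exactly 0, so the gap is small in size.

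GCLC 1555330_at went opposite ways in the lines: both silenced arrays were below both controls in JJN3 and above both in RPMI-8226, a difference of -0.57 between the lines. The interaction test of that difference did not pass (limma, adjusted p = 0.899).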

How the results depend on the processing

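The count of the 9 genes with a called probe set was 0 in every alternative run for the 6 comparisons of treatments, of silencing and of silencing by line, and 0 to 0 when any array was left out; without the replicate block, which the fit of silencing by line does not have, it was 0 in each of the other comparisons. For JJN3 against RPMI-8226 it was 7, and 6 to 7 when an array was left out; with the treatment block, dropping 1 array of a treatment also takes the information of its partner. Of the 13 probe sets called between the lines, 9 kept their call in every alternative; the 4 that did not are NFE2L2 1567013_at and 1567015_at, GCLC 1555330_at and GSR 205770_at. NFE2L2 1567015_at was at -0.33 and reversed to 0.46 with the mean of the gene's 3 probe sets, by construction, since the other 2 are positive. Counts over all probe sets moved far more: XBP1 shRNA against NT shRNA had 660 calls, 0 without the RPMI-8226 NT shRNA array or without the replicate block, 6 without the JJN3 NT shRNA array, 263 to 342 without another array, and 1151 with uninfected in place of NT shRNA. IRE1 shRNA against NT shRNA had 10 (0 to 38), IRE1 shRNA against XBP1 shRNA 1035 (0 without the replicate block, 1 without the JJN3 array labelled IRE1 shRNA, 1112 with the 2 treatments alone), silenced against control 0 (0 to 47), and JJN3 against RPMI-8226 30602 (12993 with 1 mean per gene, 30646 with robust eBayes). The cause was not tested. The IDH1, GSK3B, DPP3 and ME1 calls were all lost without the replicate block, with differences unchanged by construction. A count of 0 does not show that the members were unchanged, and signal over background is not known.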
